A study of Mus musculus with 16 samples.

Results

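The genes described here are 10 transcription factor genes of pluripotency and of the inner cell mass, namely Pou5f1, Sox2, Nanog, Klf4, Klf5, Klf17, Esrrb, Nr5a2, Prdm14 and Gata6, among 21887 protein-coding genes on chromosomes 1 to 19, X and Y. They form a list of named genes rather than the result of a threshold on measured values, though the list was drawn up with earlier results of these data known, and all 10 were found in the RefSeq gene table of GRCm38.p6. The study mapped acetylation of histone H3 at lysine 27 (H3K27ac) and trimethylation at lysine 4 (H3K4me3) in mouse late 2-cell embryos 36 h after fertilization. It used ultra-low-input native chromatin immunoprecipitation, in which chromatin is cut with micrococcal nuclease without crosslinking, the fragments held by an antibody are sequenced, and input libraries carry no antibody step. Zygotes were injected with water (control) or with mRNA of an Hdac1 mutant (mutant). The labels give no strain, do not say what the Hdac1 mutation is or does, and name no uninjected embryos or embryos given wild-type Hdac1 mRNA. Both conditions therefore share the injection itself, and the labels name no deletion of the embryo's own Hdac1 gene.

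The data were 4 peak lists, 1 for each mark in each condition, from 16 libraries in 8 groups (2 immunoprecipitation and 2 input libraries for each mark and condition). A list holds only the position of each peak, so sequencing depth and peak height are unknown here. Because the 2 immunoprecipitation libraries of a group share 1 list, no difference below has a replicate check, and no test was possible. A difference is counted when covered bases or widths differ by more than 1.5 times between conditions, with 0 in one list counted as past that fold. Counts of members called, or marked in a list, stand beside the share of all protein-coding genes that met the same rule, as a description of these 4 lists.

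The control H3K27ac list held 77349 peaks over 251.6 Mb and the mutant list 122487 peaks over 245.9 Mb, so the mutant list had more, narrower peaks over a similar length. The H3K4me3 lists held 86798 peaks over 257.0 Mb in the control and 85780 over 279.4 Mb in the mutant. Of 10 genes known for their activity at the 2-cell stage, all 10 had H3K27ac at a gene end in both lists (54.8% of all genes in the control and 58% in the mutant). H3K4me3 was at 8 in each list (74.7% and 72.9%). Among the 10, 2 were marked in the control only (6.68% of all genes) and 2 in the mutant only (4.85%). Several of these, such as Zscan4c and Zscan4f, belong to multicopy families, so their peaks may stem from reads of other copies. Their gene ends held 31.8 kb of H3K27ac in the control list and 19.8 kb in the mutant list. Of 8 genes of the cumulus and granulosa cells that surround the oocyte, 3 had H3K27ac at a gene end in the control (summed to 4.28 kb) and 5 in the mutant (8.98 kb), beside the same 54.8% and 58% of all genes. The granulosa genes Foxl2 and Fshr had none in either list, and Amh and Ptgs2 had H3K27ac in both. Has2 had 0 bp in the control and 2955 bp in the mutant, Inha 0 and 1866 bp, and Ptx3 0 and 896 bp. Tnfaip6 had 504 bp in the control and 0 in the mutant. H3K4me3 lay at 7 of these 8 genes in the control list (19.9 kb) and at all 8 in the mutant list (17.0 kb), beside 74.7% and 72.9% of all genes. What these shifts contribute to the differences at the pluripotency genes was not tested.

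Pou5f1 (also called Oct4), Sox2 and Nanog form the core of the network that keeps cells of the inner cell mass and embryonic stem cells pluripotent. Pou5f1 and Sox2 bind neighbouring DNA sites as partners, and KLF factors, the orphan nuclear receptors Esrrb and Nr5a2, and Prdm14 act with them or upstream of them. Gata6 directs the alternative fate of the inner cell mass, the primitive endoderm, in opposition to Nanog. H3K27ac is placed by acetyltransferases at active enhancers and promoters and removed by histone deacetylases such as Hdac1. H3K4me3 marks promoters, and in oocytes and early embryos it also forms unusually broad domains that are trimmed around the 2-cell stage, when the embryo's own genome is switched on.

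Start sites were given for 7 members by the RefSeq promoter table of GRCm38.p6. Klf5, Prdm14 and Gata6 were followed by their gene ends. The sequences below are the 250 bases before the start for the members whose starts are described next: 4 whose first start lay in an H3K27ac peak of the control list only, Sox2, and the second start of Nr5a2, which lay in peaks of both lists. They are written 5′ to 3′ on the gene's strand, with matches to the motifs named afterwards in capitals.

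Pou5f1, first start, chr17:35505782-35506031, plus strand: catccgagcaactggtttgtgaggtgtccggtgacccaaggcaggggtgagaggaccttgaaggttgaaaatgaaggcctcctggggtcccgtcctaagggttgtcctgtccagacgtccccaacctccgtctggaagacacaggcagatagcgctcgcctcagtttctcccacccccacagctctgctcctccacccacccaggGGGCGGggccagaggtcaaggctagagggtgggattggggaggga

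Nanog, first start, chr6:122707239-122707488, plus strand: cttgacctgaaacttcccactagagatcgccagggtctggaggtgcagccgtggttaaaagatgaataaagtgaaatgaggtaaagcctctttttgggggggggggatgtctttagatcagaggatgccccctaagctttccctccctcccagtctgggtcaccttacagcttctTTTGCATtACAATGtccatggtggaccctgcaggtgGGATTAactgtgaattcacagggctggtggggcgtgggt

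Sox2, chr3:34649745-34649994, plus strand: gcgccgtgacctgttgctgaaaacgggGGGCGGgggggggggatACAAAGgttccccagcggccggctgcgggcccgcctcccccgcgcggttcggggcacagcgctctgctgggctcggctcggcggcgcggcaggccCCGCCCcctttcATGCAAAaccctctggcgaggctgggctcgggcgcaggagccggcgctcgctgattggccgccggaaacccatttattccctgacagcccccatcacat

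Klf4, chr4:55532476-55532725, minus strand: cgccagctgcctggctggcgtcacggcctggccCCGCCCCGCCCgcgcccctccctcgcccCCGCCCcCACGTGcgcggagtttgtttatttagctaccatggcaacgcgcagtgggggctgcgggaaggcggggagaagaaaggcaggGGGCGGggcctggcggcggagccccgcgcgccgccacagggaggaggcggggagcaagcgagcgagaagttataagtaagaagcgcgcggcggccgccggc

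Klf17, chr4:117765667-117765916, minus strand: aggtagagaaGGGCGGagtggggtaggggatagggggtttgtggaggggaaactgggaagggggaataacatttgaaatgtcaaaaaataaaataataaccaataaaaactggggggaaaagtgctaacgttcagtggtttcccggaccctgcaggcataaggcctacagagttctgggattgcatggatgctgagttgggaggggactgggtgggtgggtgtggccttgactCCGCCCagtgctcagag

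Nr5a2, second start, chr1:136953631-136953880, minus strand: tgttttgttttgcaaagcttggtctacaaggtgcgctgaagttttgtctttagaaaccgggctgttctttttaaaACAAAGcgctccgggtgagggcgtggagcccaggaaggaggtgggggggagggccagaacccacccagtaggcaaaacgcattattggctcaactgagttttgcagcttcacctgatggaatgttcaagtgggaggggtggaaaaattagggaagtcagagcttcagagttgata

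Over the promoters of the table (250 bases before the start and 50 after), the Klf4 promoter had a GC content of 74.3% and 40 CpG dinucleotides, more than 96.1% of the 32851 promoters. Sox2 had 66.3% GC and 27 CpG, and the first Pou5f1 start 62.7% and 11. The medians of the table were 52.7% GC and 7 CpG. Nanog had 4 CpG at its first start and Klf17 had 6, and the first Nr5a2 start had 42% GC and 2 CpG. So the members spanned the range from CpG-poor to CpG-rich starts.

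Motifs were searched as plain letters on both strands in the 11 promoters of the 7 members. The KLF and SP box GGGCGG was held by 4 of the 11 (first Pou5f1 start, Sox2, Klf4 with 4 copies and Klf17 with 2), and by 35.7% of all promoters. The SOX core ACAAAG was in 2 (Sox2 and the second Nr5a2 start, against 18.7% of all promoters). The homeobox core GGATTA was in 4 (the second Pou5f1 start, both Nanog starts, whose windows overlap, and Klf17, against 7.06%). Its Klf17 match lies after the start, so it is not among the bases shown above. The E-box CACGTG was in Klf4 only (7.15%). Neither the full octamer ATGCAAAT (1.74% of promoters) nor the orphan nuclear receptor core AAGGTCA (4.72%) was present in any of the 11.

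A pair of shorter or related forms was added after the sequences were seen. The octamer without its last base, ATGCAAA, was present in Sox2 and in Nanog, and in 4.63% of all promoters. The SOX site ACAATG was in 5 of the 11 promoters (the second Pou5f1 start, both Nanog starts, Klf17 and the first Esrrb start) and in 12.6% of all promoters. In Klf17 and Esrrb the match lies after the start. The shortened octamer lies 75 bases before the first Nanog start and ACAATG 67 bases before it, so that the 2 lie next to each other with 1 base between them. In Sox2 the shortened octamer lies 99 bases before the start. These matches describe the letters only.

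The 7 members with starts were compared by whether the first start lay inside a peak, a count added after the data had been seen. In the control list the first start was inside an H3K27ac peak for 5 of the 7 members (35.2% of 17492 genes with a start), namely Pou5f1, Nanog, Klf4, Klf17 and Nr5a2. In the mutant list it was inside one for 0 of 7 (27.8% of genes). Thus all 5 were covered in the control only, a state shared by 17.6% of genes, and 0 in the mutant only (10.2% of genes). Among the 6161 genes whose start was covered in the control list, 50% were not covered in the mutant list, against 5 of 5 members. The mutant value was 1 of 7 when peaks less than 1 kb apart were joined, because the Sox2 start lies in a gap between 2 mutant peaks.

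H3K4me3 did not follow this at the same starts. The first start was inside an H3K4me3 peak for 5 of 7 members in each list (66.3% of genes in the control and 62.4% in the mutant). Pou5f1, Sox2, Klf4 and Klf17 had it in both lists, a state shared by 58.5% of genes. Nr5a2 had it in the control only (7.78% of genes) and Nanog in the mutant only (3.96%).

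The gene-end windows (2 kb on each side of both gene ends, 8002 bp for a gene longer than 4 kb) were available for all 10 members. H3K27ac was present at 9 members in the control list (54.8% of genes) and at 8 in the mutant list (58% of genes). Pou5f1 and Klf4 had it in the control only (12.5% of genes) and Sox2 in the mutant only (15.6%). Covered bases were lower in the mutant past 1.5 times at 6 members, Pou5f1, Nanog, Klf4, Klf5, Klf17 and Esrrb (27.4% of genes), and higher at 2, Sox2 and Gata6 (24.9%). Of the genes marked in the control, the only ones that can be lower, 49.9% were lower, against 6 of 9 members.

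For H3K4me3, 9 of 10 members were marked in both lists (74.7% of genes in the control and 72.9% in the mutant), the exception being Esrrb. No member was marked in 1 list only (6.68% of genes in the control only and 4.85% in the mutant only). Covered bases were lower at 2 members, Nanog and Nr5a2 (15.1% of genes), and higher at 1, Pou5f1 (17.5%). The summed gene-end coverage of the 10 members was 38.7 kb of H3K27ac in the control and 22.3 kb in the mutant, and 44.8 kb and 44.1 kb of H3K4me3.

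**Figure D1:**
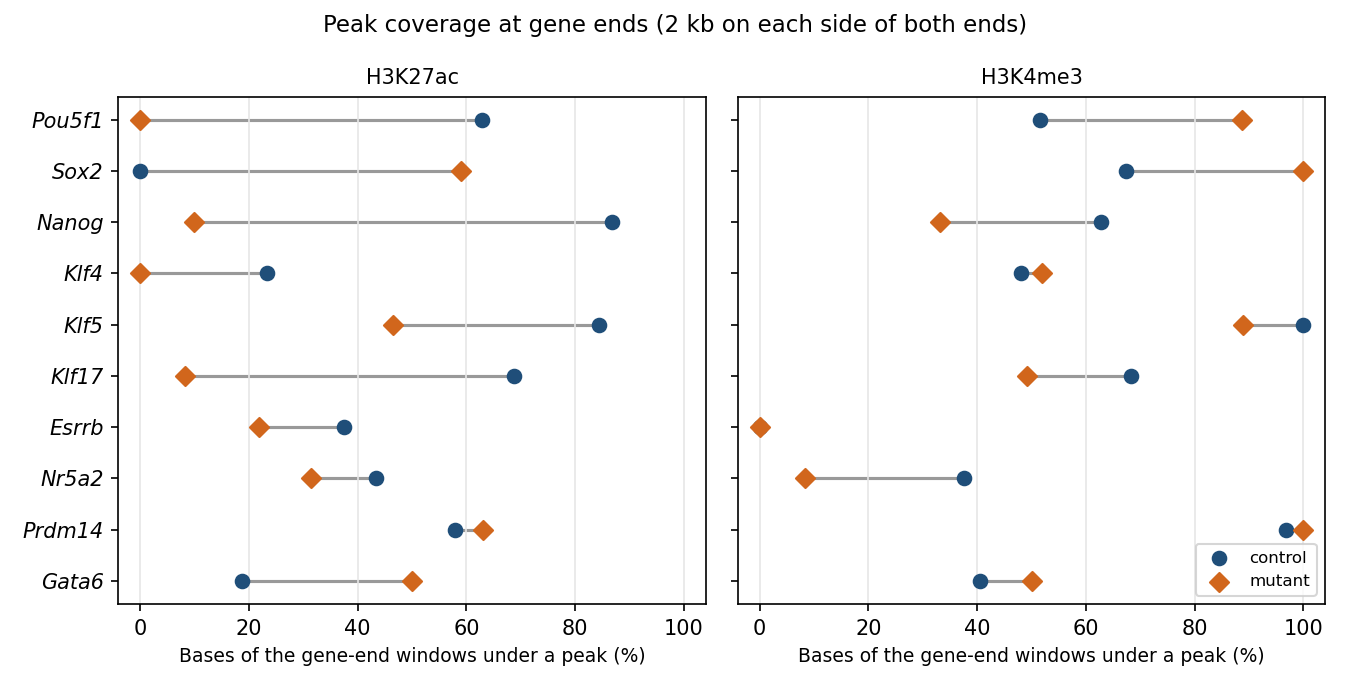
Share of the gene-end windows (percent of their bases, x axis) under H3K27ac (left) and H3K4me3 (right) for each member, with 1 point for the control list (circle) and 1 for the mutant list (diamond). For H3K27ac, Pou5f1 and Klf4 reach 0 in the mutant list and Nanog and Klf17 lie under 10%, while Sox2 moves from 0 in the control list to 59.0%; the H3K4me3 points lie closer together than the H3K27ac points for every member except Nr5a2.

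Pou5f1 encodes the POU factor at the centre of the network and lies at chr17:35506032-35510777. H3K27ac covered 5024 of its 8002 gene-end bases in the control list and 0 in the mutant list. The control peak over the first start was 25293 bp wide (chr17:35482007-35507299), and in the mutant list the nearest peak was 8126 bp from that start. A second RefSeq start, 2775 bp inside the gene, was also inside a control peak (2106 bp wide) and lay 9978 bp from the nearest mutant peak.

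Over the same windows H3K4me3 was the other way round. It covered 4127 bp in the control list and 7093 bp in the mutant list, 1.72 times as many, and the mutant peak over the gene was 25885 bp wide (chr17:35483583-35509467). The control peak over the first start was 12174 bp wide and that over the second start 281 bp wide. The widest control peak touching the windows, at chr17:35512735-35525275, was 12541 bp wide and lay beyond the gene. Both starts were inside H3K4me3 peaks in both lists. In the mutant list H3K4me3 thus lay over both starts where no H3K27ac peak was listed.

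Within 50 kb of Pou5f1, H3K27ac covered 71.1 kb in the control list and 44.0 kb in the mutant list, 1.62 times fewer bases. H3K4me3 covered 80.8 kb and 89.0 kb, which is 77.1% and 85.0% of the 104.7 kb span. These shares were higher than those of 98.6% and 99.7% of protein-coding genes. The span also holds H2-Q10, Tcf19, Cchcr1, Psors1c2 and Cdsn, so not all of these bases can be assigned to Pou5f1.

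Sox2 encodes the HMG-box partner of Pou5f1 and lies at chr3:34649995-34652461, with no other protein-coding gene within 50 kb. With Gata6, it was one of the 2 members with more gene-end H3K27ac in the mutant list past the fold. The control list had 0 of 6467 gene-end bases covered and its nearest peak, 311 bp wide, was 16847 bp from the start. The mutant list had 3 peaks over 3813 bp (59.0%), the widest 1479 bp (chr3:34648172-34649650), and the start was 345 bp from this peak. Within 50 kb the mutant list had 16 peaks over 34.7 kb and the control list 8 over 20.7 kb, 1.68 times as many bases in the mutant. Within 20 kb the same ratio was 40.3, because the control list held little there.

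H3K4me3 was present at the Sox2 start in both lists. It covered 4358 bp of the gene-end windows in the control list and all 6467 bp in the mutant list, which was below the fold of 1.5. The peak over the gene was 3129 bp wide in the control (chr3:34648339-34651467) and 23728 bp in the mutant (chr3:34634415-34658142). The 50 kb totals were nevertheless close, at 48.4 kb and 49.9 kb.

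Nanog encodes the homeobox factor of the inner cell mass and lies at chr6:122707489-122714633. H3K27ac covered 6947 gene-end bases in the control list and 794 in the mutant list, 8.75 times fewer. The control peak over the first start was 8506 bp wide (chr6:122700645-122709150), and a 6436 bp mutant peak (chr6:122699378-122705813) ended before the gene. A 469 bp mutant peak lay 345 bp from the start. Within 50 kb the difference was smaller, 64.9 kb in the control and 45.4 kb in the mutant, and was not past the fold. This span includes part of Slc2a3, a glucose transporter gene.

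The 2 H3K4me3 lists covered different ends of Nanog. The control list had a 10010 bp peak over the distal end (chr6:122711546-122721555) and its nearest peak was 983 bp from the first start. The mutant list had a 12452 bp peak over the first start (chr6:122695697-122708148) and its nearest peak was 2207 bp from the distal end. Gene-end coverage was 5019 bp and 2660 bp, 1.89 times fewer in the mutant. Around the starts alone the direction was reversed, with 1642 bp more in the mutant list, so the call depended on which end was counted.

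**Figure D2:**
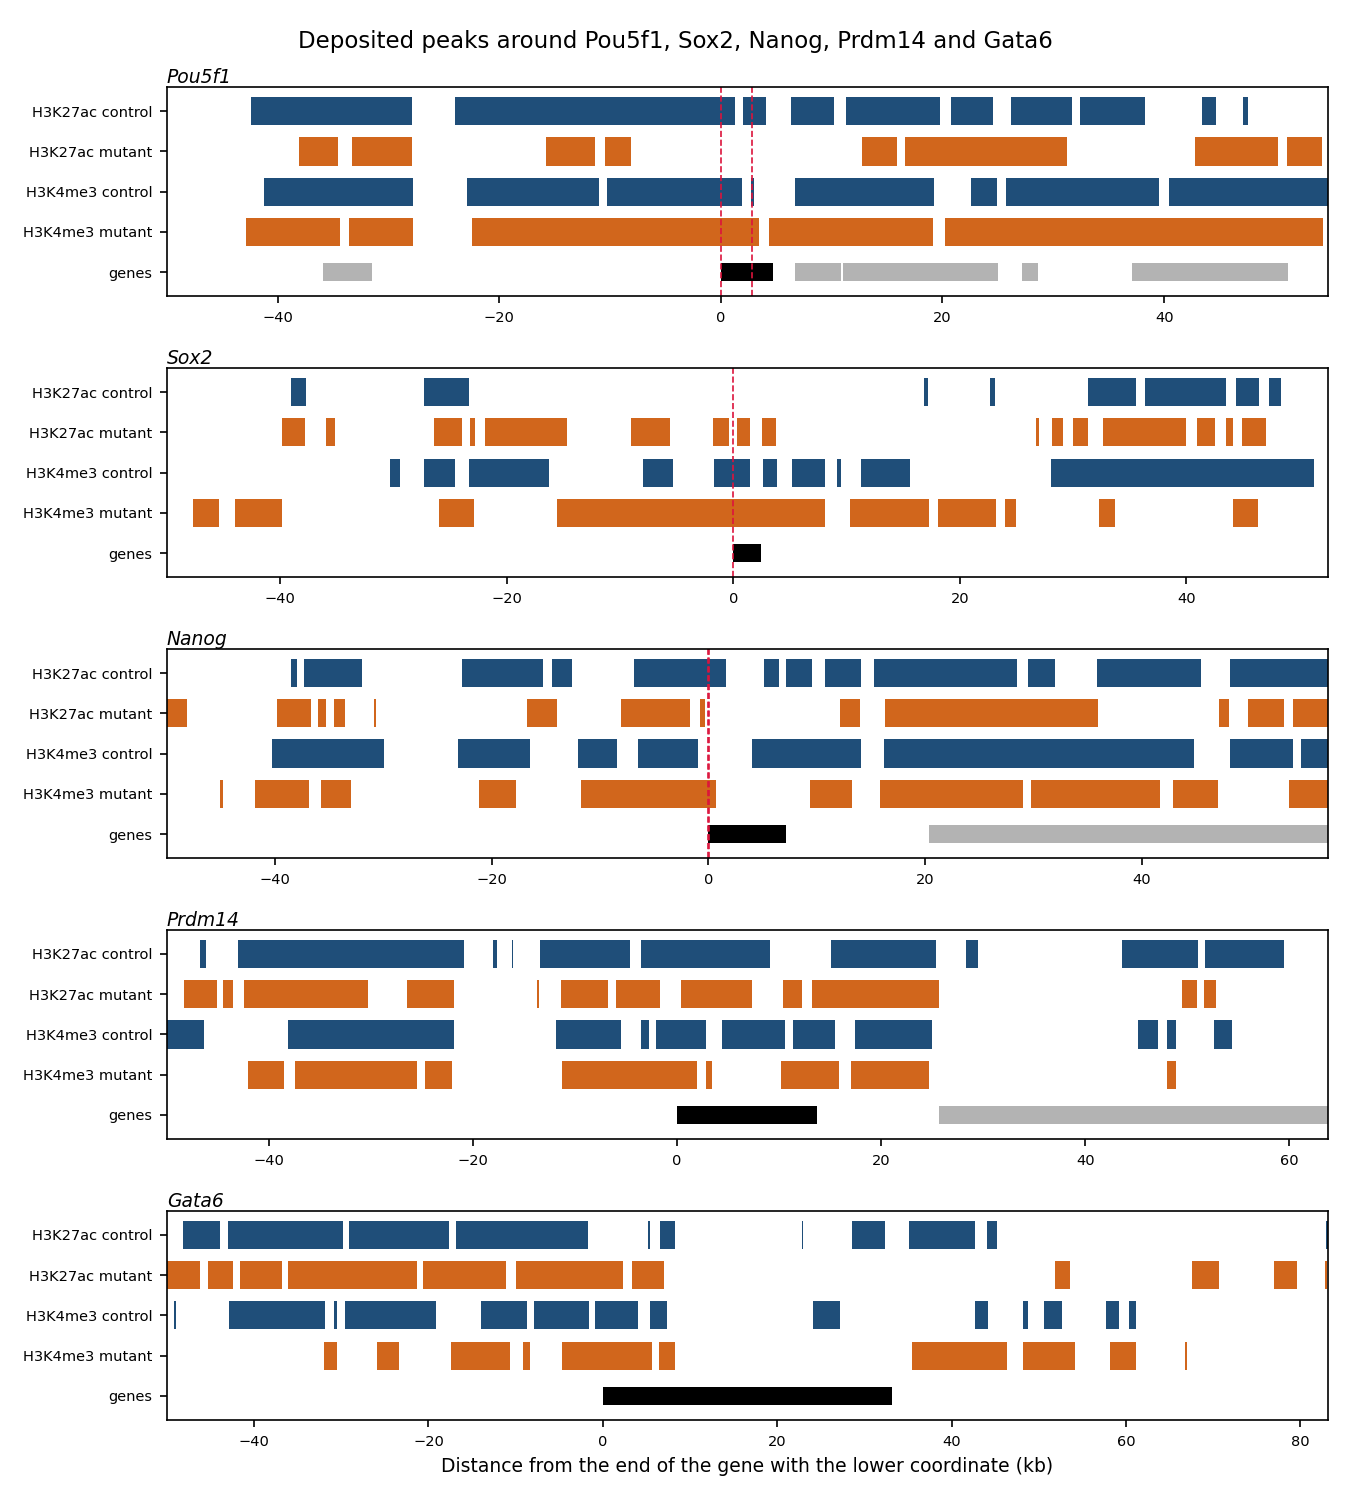
Maps of the peaks around Pou5f1, Sox2, Nanog, Prdm14 and Gata6, with the distance from the lower-coordinate gene end in kb on the x axis, control peaks in blue, mutant peaks in orange, the member gene in black, neighbouring genes in grey and start sites as dashed red lines. At Pou5f1 the 25293 bp control H3K27ac peak crosses the first start and no mutant H3K27ac peak touches the gene-end windows; at Sox2 the windows hold 3 mutant and 0 control H3K27ac peaks.

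The 3 KLF genes, which encode zinc-finger factors that bind GC-rich sequences, had the same H3K27ac calls as Pou5f1. Each of the 3 had fewer covered bases in the mutant list past the fold of 1.5. This held at the gene ends (27.4% of genes) and within 50 kb (26.1%), and no share of genes is given for both calls together. They account for 3 of the 4 members with lower H3K27ac within 50 kb, the other being Pou5f1.

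Klf4, a reprogramming factor and maintainer of naive pluripotency, lies at chr4:55527137-55532475. A 1873 bp control H3K27ac peak (chr4:55532332-55534204) lay over its start and gave all 1873 covered gene-end bases, and the mutant list had 0. The nearest mutant peak was 10815 bp away. Within 50 kb the control list had 18.8 kb and the mutant list 3.44 kb, 5.48 times fewer, and no base was covered in both lists. Within 20 kb the mutant to control ratio was 0.779, not past the fold, so most of this difference lay farther from the gene. The widest peak in the 50 kb span was 10286 bp in the control and 1237 bp in the mutant.

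H3K4me3 at Klf4 was similar in the 2 lists, with 3844 and 4152 gene-end bases. The start was inside an H3K4me3 peak of 4743 bp in the control (chr4:55529576-55534318) and of 8414 bp in the mutant (chr4:55528987-55537400). The 50 kb totals were 23.1 kb and 20.4 kb.

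Klf5, which acts in both the trophectoderm and the inner cell mass, lies at chr14:99298691-99313412. H3K27ac covered 6746 gene-end bases in the control list and 3716 in the mutant list, 1.82 times fewer. Its lower-coordinate end was inside a control peak and 13006 bp from the nearest mutant peak, whereas the upper end was inside a peak of both lists, 10782 bp wide in the control (chr14:99309199-99319980) and 7284 bp in the mutant (chr14:99311697-99318980). The difference thus lay mainly at 1 end.

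Within 50 kb of Klf5, H3K27ac covered 64.3 kb in the control and 24.9 kb in the mutant, 2.59 times fewer bases. Klf5 was also the only member with lower H3K4me3 within 50 kb, 56.2 kb against 34.4 kb, 1.64 times fewer. That H3K4me3 call was not met within 20 kb (mutant to control ratio 0.994) or within 100 kb (0.69). At the gene ends H3K4me3 covered 8002 bp in the control and 7120 bp in the mutant. The widest H3K4me3 peak there was 13724 bp in the control (chr14:99306106-99319829) and 16806 bp in the mutant (chr14:99288508-99305313). The span includes part of Pibf1.

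Klf17, a KLF gene active in oocytes and early embryos, lies at chr4:117756659-117765666. A control H3K27ac peak of 19010 bp (chr4:117757165-117776174) covered nearly the whole gene and its start. The widest mutant peak at the gene ends was 2710 bp (chr4:117752369-117755078), beyond the distal end, and the start was 8122 bp from the nearest mutant peak. Gene-end coverage was 5496 bp in the control and 654 bp in the mutant, 8.40 times fewer. Within 50 kb it was 73.5 kb and 29.2 kb, 2.52 times fewer, although the mutant list had more peaks there (11 against 8).

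The Klf17 start was inside an H3K4me3 peak in both lists, 13188 bp wide in the control (chr4:117757189-117770376) and 8569 bp in the mutant (chr4:117759034-117767602). Gene-end coverage was 5472 bp and 3937 bp, below the fold. The 50 kb totals were 54.5 kb and 59.1 kb. As at Klf4, the H3K27ac difference had no counterpart of that size in H3K4me3.

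Esrrb and Nr5a2 encode orphan nuclear receptors that bind related sequences and support Pou5f1 expression. Both are long genes with a second RefSeq start inside the gene, and at both the mutant peaks of either mark lay closer to the second start than to the first.

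Esrrb lies at chr12:86361117-86521628. Its first start was outside every list's peaks, 4279 bp from the nearest H3K27ac peak in the control and 16801 bp in the mutant, and 23015 and 33488 bp from the nearest H3K4me3 peak. The second start, 60527 bp inside the gene, was inside an H3K4me3 peak of both lists (1678 bp and 3763 bp wide) and 1108 and 1550 bp from H3K27ac peaks. The gene-end H3K27ac of Esrrb lay mainly at the distal end, in a control peak of 2640 bp (chr12:86519472-86522111) and a mutant peak of 1746 bp (chr12:86520763-86522508).

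Esrrb gene-end coverage by H3K27ac was 2999 bp in the control and 1746 bp in the mutant, 1.72 times fewer. With windows of 1 kb the direction was reversed, at 262 bp more in the mutant. Within 50 kb the mutant list had more, 81.0 kb against 55.7 kb, just below the fold. With the gene body left out, the mutant to control ratio was 3.11. H3K4me3 covered 84.3 kb of this span in the control and 63.4 kb in the mutant.

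Nr5a2 lies at chr1:136842562-136960448. Its first start was inside a control H3K27ac peak of 10740 bp (chr1:136951175-136961914), and the 7094 bp mutant peak (chr1:136952031-136959124) stopped 1324 bp short of it. The second start was inside the same peaks of both lists. Of the 7 members with known starts, Nr5a2 was the only one with a start inside a mutant H3K27ac peak. Gene-end coverage was 3467 bp and 2506 bp, below the fold, but the ends went opposite ways. The windows at the first start held 3467 bp in the control and 677 bp in the mutant, and those at the distal end 0 and 1829 bp. Around the 2 starts alone the difference was -3191 bp (mutant minus control), past the fold.

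Within 50 kb of Nr5a2 the H3K27ac totals were nearly equal, 56.3 kb in the control and 56.4 kb in the mutant, but the pieces were not. With the gene body left out, the mutant to control ratio was 0.632, lower past the fold. The control list had 9 peaks, the widest 27346 bp, and the mutant list 21, the widest 7640 bp, 3.58 times narrower. For H3K4me3 the first start was inside a control peak of 12335 bp (chr1:136948566-136960900), and the mutant list had a 671 bp peak (chr1:136959374-136960044) ending 404 bp from it. Gene-end H3K4me3 was therefore 3011 bp and 671 bp, 4.49 times fewer. The second start was inside H3K4me3 peaks of 12335 bp in the control and 12039 bp in the mutant.

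Prdm14 encodes a PR-domain factor of naive pluripotency and of germ cell specification and lies at chr1:13113428-13127163. It was the member with the smallest H3K27ac difference at the gene ends. H3K27ac covered 4635 bp in the control and 5039 bp in the mutant, and H3K4me3 7749 bp and 8002 bp. The totals hide a shift between ends: the lower-coordinate end was inside a 12652 bp control peak (chr1:13109881-13122532) and 336 bp from the nearest mutant peak. The upper end was 1367 bp from the nearest control peak and inside a 12444 bp mutant peak (chr1:13126613-13139056). Both ends were inside H3K4me3 peaks in both lists. The widest H3K4me3 peak touching the gene-end windows was 4837 bp in the control (chr1:13111409-13116245) and 13315 bp in the mutant (chr1:13102114-13115428). Within 50 kb, which includes part of Ncoa2, H3K27ac covered 71.5 kb and 53.9 kb and H3K4me3 54.2 kb and 46.2 kb.

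Gata6, the primitive endoderm factor, lies at chr18:11052510-11085636 and was, with Sox2, one of the 2 members with more gene-end H3K27ac in the mutant past the fold. Coverage was 1499 bp in the control and 4001 bp in the mutant, 2.67 times as many. The lower-coordinate end was 1695 bp from a 15157 bp control peak (chr18:11035659-11050815) and inside a 12267 bp mutant peak (chr18:11042578-11054844). The upper end went the other way, with 1193 bp covered in the control and 0 in the mutant, where the nearest peak was 18763 bp away. With windows of 5 kb the direction was reversed, with a difference of -945 bp (mutant minus control). Within 50 kb the 2 lists were close, 58.7 kb and 59.5 kb of H3K27ac in 11 peaks each. H3K4me3 covered 3243 and 4001 gene-end bases, and 50.1 kb and 44.2 kb within 50 kb. Its widest peak touching the gene-end windows was 6287 bp in the control (chr18:11044616-11050902) and 10368 bp in the mutant (chr18:11047779-11058146).

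Seen over the 50 kb spans, the median member was covered more densely than the median gene in both conditions. The median share of the span under H3K27ac was 50.1% for the 10 members in the control list and 32.5% in the mutant list, beside 13.6% and 14.8% over all protein-coding genes. For H3K4me3 it was 47.5% and 36.9%, beside 17.3% and 19.6%. A gene with dense control coverage has more room to be lower, and the members' density was not matched to other genes here.

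Past the fold, H3K27ac was lower at 4 members, Pou5f1, Klf4, Klf5 and Klf17 (26.1% of genes), and higher at 1, Sox2 (27.2%). H3K4me3 was lower at 1, Klf5 (13.2%), and higher at 0 (20.8%). H3K27ac was lower without H3K4me3 being lower at 3 members, Pou5f1, Klf4 and Klf17 (21.1% of genes). The median log2 ratio of mutant to control covered bases was -0.46 for H3K27ac over the 10 members and -0.12 over the 19680 genes covered in both lists. For H3K4me3 it was -0.18 over the members and 0.08 over 19545 genes.

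**Figure D3:**
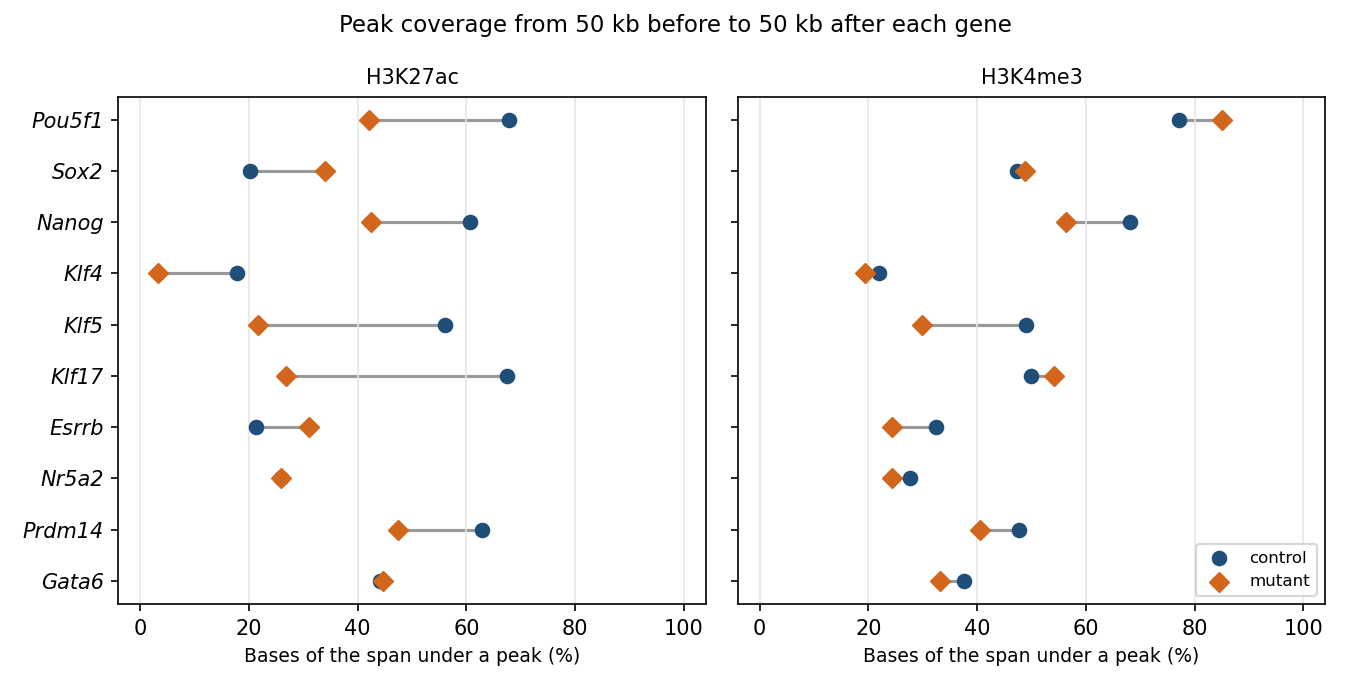
Share of the span from 50 kb before to 50 kb after each gene (percent of its bases, x axis) under H3K27ac (left) and H3K4me3 (right), with the control list as circles and the mutant list as diamonds. The H3K27ac share of Klf17 is 67.5% in the control and 26.8% in the mutant and that of Klf5 56.1% and 21.7%, while Nr5a2 and Gata6 nearly coincide and Sox2 and Esrrb are higher in the mutant.

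**Figure D4:**
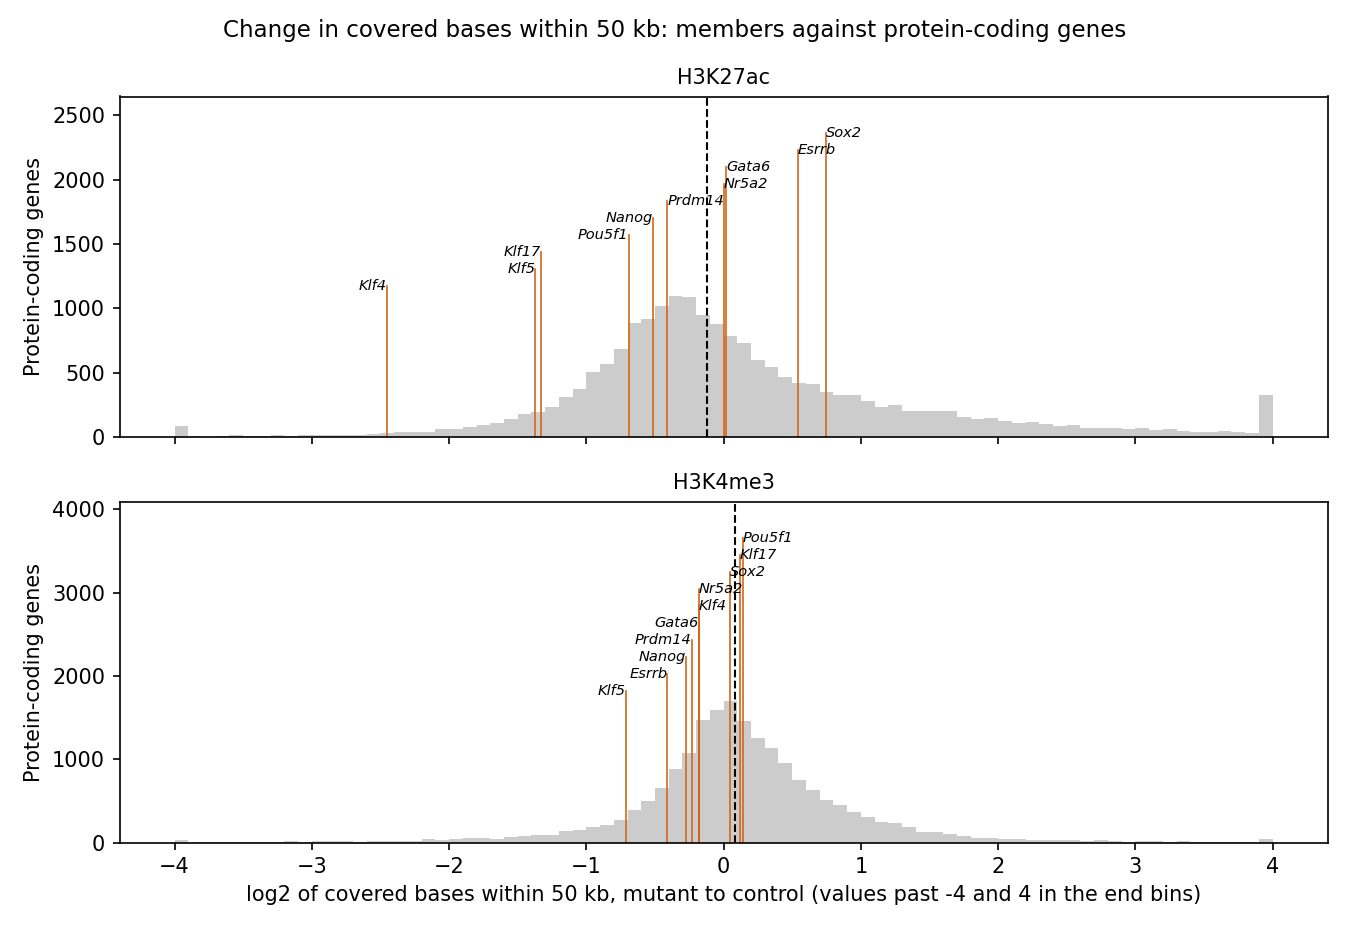
Histograms of the log2 ratio of mutant to control covered bases within 50 kb over protein-coding genes for H3K27ac and H3K4me3, with ratios past 4 in either direction gathered in the end bins, members as orange lines and the median of all genes as a dashed line. For H3K27ac the members run from -2.45 (Klf4) to 0.75 (Sox2), inside the range of all genes; for H3K4me3 they run from -0.71 (Klf5) to 0.14 (Pou5f1).

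The widest H3K27ac peak within 50 kb was narrower in the mutant past the fold at 6 members, Pou5f1, Klf4, Klf5, Klf17, Nr5a2 and Prdm14 (44.9% of genes), and wider at 0 (20.2%). At Klf5 the ratio only just passed, at 1.502. H3K27ac peaks were more numerous in the mutant at 7 members, near the 67.9% of all genes. For H3K4me3 within 50 kb the widest peak was narrower at 1 member, Nanog (18% of genes), and wider at 2, Pou5f1 and Klf17 (29.5%). H3K4me3 peaks were more numerous there at 1 member (34.2%). The widest H3K4me3 peak touching the gene-end windows was wider past the fold at Pou5f1, Sox2, Klf4, Prdm14 and Gata6. It was narrower at Klf17 and Nr5a2, and no share of all genes is given for this rule.

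The positions also differed, not only the totals. A median of 48.5% of the members' control H3K27ac bases within 50 kb were also covered in the mutant list, and a median of 70.9% of their mutant bases were covered in the control (36.7% and 38.1% over all genes). For H3K4me3 these medians were 59.1% and 69.4% (61.0% and 55.8% over all genes). Overlap of this kind tends to be larger where the spans are more densely covered. The members' higher density was not matched to other genes here. The share of mutant H3K27ac bases in control peaks was highest at Klf17 (87.3%) and lowest at Klf4 (0%), Sox2 (39.0%) and Nr5a2 (40.1%).

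Each mark had a peak somewhere in the gene-end windows of 8 members in the control (50.9% of genes) and of 7 in the mutant (51.5%), which does not require that the marks overlap. In the mutant list no gene-end base of Klf17 or Nr5a2 was under both marks. Within 50 kb, the bases under both marks were fewer in the mutant at 9 of 10 members, beside 52.8% of all genes and 70% of those that had such bases in the control. The largest differences were at Klf5, with 40.8 kb under both marks in the control and 4.86 kb in the mutant, and at Klf17, with 48.7 and 18.0 kb. Klf4 had 13.4 kb in the control and 0 in the mutant. Pou5f1 had 63.5 and 42.9 kb and Nanog 56.5 and 34.3 kb. Sox2 had 17.3 and 13.1 kb although its H3K27ac total was higher in the mutant, so that 83.5% of its H3K27ac bases were under H3K4me3 in the control and 37.6% in the mutant. Esrrb was the exception, with 42.7 kb in the control and 48.6 kb in the mutant.

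Among 25 other genes of naive pluripotency and the inner cell mass, H3K27ac was at a gene end of 20 in the control list (54.8% of all genes) and 19 in the mutant list (58%), and H3K4me3 of 23 (74.7%) and 24 (72.9%). H3K27ac coverage at the gene ends was lower past the fold at 9 (27.4% of all genes) and higher at 5 (24.9%). Within 50 kb it was lower at 4 (26.1% of all genes) and higher at 7 (27.2%). Whether these counts differ from those of the members was not tested. Utf1, a chromatin-bound factor of stem cells, had 955 bp at its gene ends in the control and 0 in the mutant, and Otx2, a homeobox factor of the later epiblast, 551 and 0 bp. Lifr, the receptor subunit for leukaemia inhibitory factor, had 0 bp of H3K4me3 in the control and 2611 bp in the mutant.

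Among 12 genes of the primitive endoderm, the lineage of Gata6, all 12 had H3K4me3 at a gene end in both lists (74.7% of all genes in the control and 72.9% in the mutant). Few had H3K27ac there, 3 in the control and 4 in the mutant (54.8% and 58% of all genes). The 3 had it in the control only (12.5% of genes) and the 4 in the mutant only (15.6%). Fgfr1, a receptor for fibroblast growth factors, had 0 bp in the control and 4001 bp in the mutant. Gata4, the partner of Gata6, had 0 and 2798 bp, and Sox17, an endoderm factor, 0 and 1929 bp. Cubn, an endocytic receptor of the visceral endoderm, had 2725 bp in the control and 0 in the mutant.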

How the data were processed

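Native chromatin immunoprecipitation libraries for H3K27ac and H3K4me3 were analysed through the 4 peak lists the authors deposited, each holding chromosome, start and end of a peak with no score, height or read count. Per the submitters' processing notes, the tools were CASAVA, Trimmomatic, Bowtie2, SAMtools, Picard, MACS2 and deepTools and the builds mm10 and GRCm38. The peak threshold and whether the 2 libraries of a group were pooled are not given in the sources used here. The smallest peak width ran from 149 to 182 bp and the smallest gap from 602 to 734 bp, so the limits on width and joining differed between lists, which affects peak numbers and widths.

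Groups came from the sample titles. The lists were treated as 0-based BED files, and printed coordinates count from 1. Genes were placed with the RefSeq table of GRCm38.p6, which gives no strand, so gene ends stand in for starts except where the promoter table gave a start. Covered bases were counted within 2 kb of both gene ends and within 50 kb of the gene, a peak counting from an overlap of 1 bp, with Python 3.11.15 and NumPy 2.4.6 (figures with Matplotlib 3.10.9). The counting was tested on simulated data. With 1 list per group there is no replicate error and no p-value, and the lone lists limit precision in a way that could not be measured.

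All 10 members are named, each with its widest peak at the gene ends. Of each other list at most 4 genes are named, those marked in 1 list only for either mark, by the size of the difference in covered bases. One gene chosen by this rule is not reported here. Of the cumulus and granulosa list, the other 4 genes are named too, chosen after their values were seen. The members and lists were chosen with earlier results of these data known. Alternatives changed the windows, spans, joining and width of peaks, list size and fold.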

Additional observations from a re-analysis of the deposited data

How the results depend on the processing

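No paired analysis was possible because there is only 1 list for the 2 libraries of a group, and for the same reason no library could be left out. A stricter peak threshold could not be run without scores, and the wider 50% of each list stood in for it. Of the values that answer a comparison, 123 were kept within 1.5 times under an alternative and 21 were not; the cause was not tested beyond what each alternative changes by construction. Around starts only (7 members), H3K27ac was at 6 members in the control (9 with all gene ends) and at 4 in the mutant (8). In the same setting H3K27ac was higher at 1 (2), and H3K4me3 was lower at 1 (2) and higher at 2 (1). No share of all genes stands beside the counts in this section. With 5 kb windows H3K27ac was higher at the ends of 1 member and H3K4me3 of 3, and with 1 kb windows H3K4me3 was lower at 1. Within 50 kb, H3K27ac was higher at 1 member, and at 2 within 100 kb, 2 with the gene body left out and 0 with a fold of 2. H3K4me3 was lower within 50 kb at 1 member, and at 0 within 20 kb, 0 within 100 kb and 0 with a fold of 2, and was higher at 1 within 20 kb. A fold of 2 left H3K4me3 lower at the ends of 1 member and higher at 0, and the wider 50% of peaks left it higher at 2. Joining peaks under 1 kb apart, or setting common limits, put 1 member's first start inside a mutant H3K27ac peak (0 otherwise; the count of starts inside peaks and all its alternatives were chosen after seeing the data) and left the widest H3K4me3 peak wider at 1 member (2 otherwise). Of the values of single members, 258 were kept, 53 moved and 3 changed direction: the H3K27ac difference at the ends of Esrrb was 262 bp with 1 kb windows (-1253 bp otherwise), that of Gata6 -945 bp with 5 kb windows (2502 bp otherwise), and the H3K4me3 difference of Nanog 1642 bp around starts only (-2359 bp otherwise).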
